A study of Mus musculus with 142 samples.

Results

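Replication timing (RT) of the CAST homolog differed more between cell clones in some stretches of the genome than in others, and the windows described here are the 856 of 42768 ranked 50 kb windows in which it differed most. They were chosen by a rule on measured values. The profiles of the CAST homolog without a deletion were averaged to clones, the interquartile range (IQR, the distance between the lower and the upper quartile) over the 43 clones was taken in each window with a value in at least 30 clones, and the windows in the top 2% of this range were kept. The 80 windows around the edited locus on chromosome 16 were left out before the ranking. The spread between these clones is therefore a property of the choice and is given below as a description, without a test. What the rule did not use were the timing of the musculus homologs and the timing of CAST homologs that do carry a deletion.

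The cells were F121-9 mESCs, a hybrid line from a cross of the mouse subspecies musculus and castaneus (CAST), grown in 2i and LIF. E/L Repli-seq was run after labelling with BrdU for 2 h and sorting of early and late S-phase cells. Every clone carried CRISPR-mediated deletions in the Dppa domain of chromosome 16, so that no unedited parental cells were among the samples. Deleted were the ERCE-containing segments A, B and C as a whole, single binding sites of Oct4, Sox2 and Nanog in them (OSN, numbered within A, B or C), transcription start sites in them (TSS), parts of C named by their side and length (CL20k, CR11.8k, CR13.4k, CR14.6k, COSN1.2.8k), or a further OSN site named Z. "Unmodified" refers to the CAST homolog of 43 clones of 24 lines, all of which carried the deletion on their musculus homolog. These were A.B.COSN123, A.BOSN1.COSN123, A.BOSN12.BTSS.COSN123, A.BOSN12.COSN123, A.COSN123, AOSN.B.COSN123, AOSN.BOSN12.COSN123, AOSN.COSN123, BOSN1.COSN123, BOSN12.COSN123, COSN123 and Z.AOSN.COSN123 on the one side (20 clones), and A.COSN12, AOSN.COSN12, BTSS, BTSS.CTSS, CL20k, COSN1, COSN1.2.8k, COSN12, CR13.4k, CR14.6k, CTSS and Z.B.C on the other (23 clones). The lines with COSN123 in their names are called the COSN123 family here, since COSN123 was recovered as 1 clone, A10, and further deletions were added in that background. Set aside by the rule were 10 CAST homologs with a deletion of their own, called held-out below. They came from A.B.COSN123 clone 5A.7 and AOSN.B.COSN123 clones 2A.2, 3C.4 and 5A.6, which had lost B on CAST too, from 3 ATSS.BTSS.CTSS clones that lacked ATSS on CAST, from BTSS.CTSS clone C11 that lacked BTSS on CAST, and from CR11.8k clone 50 and CTSS clone C4, in which CAST was the deleted homolog. The musculus homologs of all 53 clones were used, 51 of them deleted in the Dppa domain and 2 not (CR11.8k clone 50 and CTSS clone C4).

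In S phase, large chromosome domains replicate at characteristic times. Early replicating domains are as a rule gene-rich, transcribed and located in the nuclear interior (A compartment), whereas late replicating domains are gene-poor and often contact the nuclear lamina (B compartment). Some domains keep their time in all cell types, and others, called developmental domains, switch between early and late during differentiation. The log2 ratio of early over late reads, log2(E/L), measures the timing of a window: positive values are early, negative values are late, and values near 0 are mid S phase or a mixture of cells or of homologs that replicated early and late, which a population measurement cannot separate.

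The 138 profiles used covered 73.8% to 93.8% of the windows (median 86.7%). The files hold ratios without read numbers, and the depth of a window is unknown. The error of a value is taken from cultures and clones. Neighbouring windows share reads through the smoothing over 300 kb and are not independent. Of the windows of 18 core pluripotency genes (Pou5f1, Sox2, Nanog and others), 26 of 26 had a median above 0, with a median of 1.28. So did 16956 of the 25720 windows with any protein-coding gene (median 0.63) and 382 of 456 windows of zinc finger genes (median 1.16). Early timing of the pluripotency genes therefore goes with the label of the cells but does not by itself identify them. The labels name no batch.

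The promoters of 3 genes are shown because they start inside the runs of windows on which the results below turn, the first in the longest run and the other two in runs in which repeat cultures of a clone came out far apart. Each is the RefSeq promoter of GRCm38.p6, from 250 bases before the gene's start to 50 bases after it, 5′ to 3′ on the gene's strand, with CG dinucleotides in capitals. CG reads the same on both strands.
Dpp4, chr2:62412182-62412481, minus strand: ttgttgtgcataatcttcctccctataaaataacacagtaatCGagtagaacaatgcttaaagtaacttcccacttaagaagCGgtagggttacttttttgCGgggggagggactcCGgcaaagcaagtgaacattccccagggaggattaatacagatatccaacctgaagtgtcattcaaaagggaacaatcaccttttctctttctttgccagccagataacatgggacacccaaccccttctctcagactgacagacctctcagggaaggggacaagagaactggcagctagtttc
Arsb, chr13:93771429-93771728, plus strand: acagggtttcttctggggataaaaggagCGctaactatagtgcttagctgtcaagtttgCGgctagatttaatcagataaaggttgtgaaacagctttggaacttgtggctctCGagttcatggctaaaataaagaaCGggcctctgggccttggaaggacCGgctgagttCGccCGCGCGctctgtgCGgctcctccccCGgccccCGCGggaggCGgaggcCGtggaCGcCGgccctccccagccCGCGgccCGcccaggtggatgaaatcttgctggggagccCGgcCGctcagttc
Slc9a9, chr9:94669642-94669941, plus strand: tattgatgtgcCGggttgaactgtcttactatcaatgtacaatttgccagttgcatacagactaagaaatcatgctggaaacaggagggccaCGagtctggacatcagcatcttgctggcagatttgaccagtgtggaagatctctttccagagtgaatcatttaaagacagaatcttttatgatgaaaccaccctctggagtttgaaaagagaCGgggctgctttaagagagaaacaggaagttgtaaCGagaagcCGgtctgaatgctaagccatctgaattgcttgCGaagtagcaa
The Dpp4 promoter held 4 CG and the Slc9a9 promoter 6, against a median of 7 over 32851 RefSeq promoters of the same length. The Arsb promoter held 22, and 78.5% of all promoters held as many or fewer. At least 1 CG stood in 94.6% of all promoters, so its presence sets none of the 3 apart.

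The windows lay mostly in mid to late S phase. Their timing, the median over clones, had a median of −0.42 (quartiles −0.84 and 0.16), whereas the ranked windows had a median of 0.03 and spread far wider (quartiles −0.94 and 1.04). Below 0 lay 591 of the 856 windows (69.0%), against 49.4% of the ranked windows. Between −1 and 0.5 lay 622 (72.7%), against 37.9%. The share of ranked windows that was selected was 4.26% at a timing from −1 to −0.5, 3.96% from −0.5 to 0 and 3.17% from 0 to 0.5. It was lower at both ends, with 1.28% below −1, 1.05% from 0.5 to 1 and 0.448% above 1. In 172 windows (20.1%) at least 25% of the clones lay on each side of 0, compared with 6.39% of the ranked windows. In these windows some clones were early and others late. The choice of windows with a wide IQR over the same clones raises this share, so it is given as a description.

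**Figure D1:**
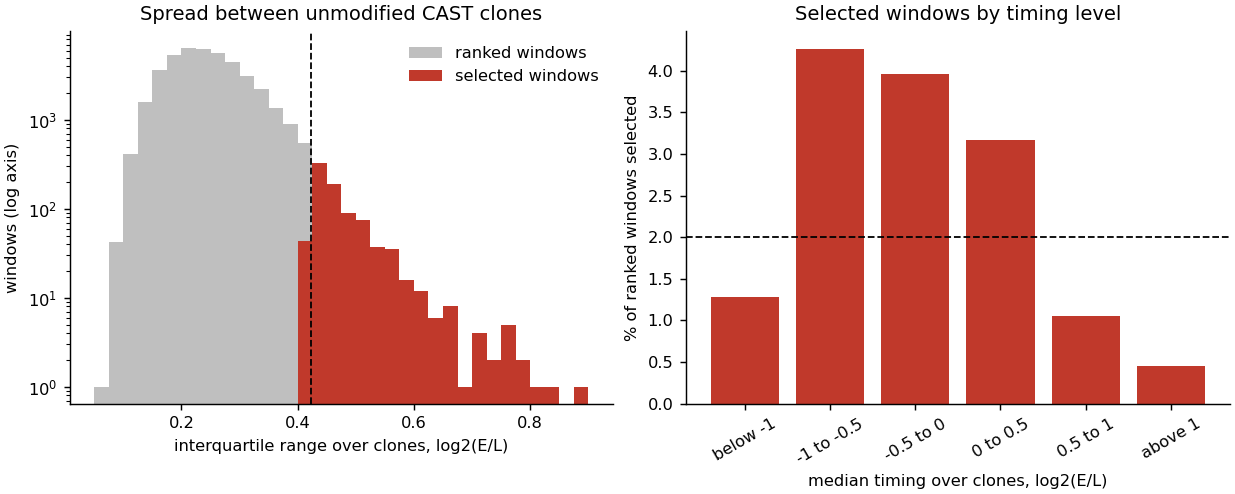
Left, number of windows (log axis) by IQR of log2(E/L) over unmodified CAST clones, with ranked windows in grey and selected windows in red. Right, share of ranked windows that was selected by median log2(E/L) over clones, with dashed lines at the threshold of 0.423 (left) and at 2% (right). Selected windows form the upper tail of 1 continuous distribution and are most frequent from −1 to 0.5.

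No gap separated the selected windows from the others. Positions here and below are in mm10 (GRCm38). The median IQR was 0.46 in the selected and 0.24 in the ranked windows. The last window inside the threshold of 0.423, chr18:33150001-33200000 over Camk4 (a calcium-dependent protein kinase) and Stard4 (a sterol carrier), ranged from −0.98 to 0.13 over 43 clones. The first one outside it, chr2:112900001-112950000 in Ryr3 (a calcium release channel), ranged from −1.91 to −0.42 over 37 clones. The widest window, chr16:98050001-98100000 with A630089N07Rik, had an IQR of 0.88, quartiles of 0.99 and 1.87 around a median of 1.41, and values from −0.12 to 5.50 in 40 clones. It lay 50 kb from a window without a value or the end of the chromosome, and it was 1 of only 10 selected windows with a value beyond 4 in size.

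Adjacent windows were often selected together. The 856 windows formed 435 runs, of which 274 were single windows and 81 were pairs. The 80 runs of 3 or more windows held 420 windows (49.1%), and the 40 runs of 5 or more held 282. Single windows differed from long runs in where they lay. Within 300 kb of a missing window or a chromosome end, where the smoothing has fewer neighbours, were 128 single windows (46.7%) but 47 windows of runs of 3 or more (11.2%), with 22.9% among the ranked windows. Single windows were also later, with a median timing of −0.64 against −0.30 in runs of 3 or more. The slope of timing across 100 kb was somewhat higher than elsewhere, with a median of 0.18 in the selected and 0.13 in the ranked windows. Steep transitions, with a slope over 0.5, made up 6.12% and 4.98%.

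By chromosome, the selected share was highest on chromosome 6 (82 windows, 3.08% of its ranked windows), followed by chromosomes 13 (56 windows, 2.57%), 17 (40 windows, 2.47%) and 2 (73 windows, 2.46%). Chromosomes 8 and 11 had the lowest shares of the rest at 1.31% each, apart from 2 chromosomes far below. These were chromosome 18, where 9 windows (0.529%) were selected as 9 separate single windows, and chromosome 19, with 7 windows (0.672%).

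The windows were poorer in genes than the rest of the genome. No protein-coding gene of GENCODE vM21 overlapped 50.1% of them, against 39.9% of the ranked windows, and a gene start lay in 20.1% against 29.0%. Their base composition was close to that elsewhere, with a median GC content of 40.8% against 41.8%, a median of 7.26 CG dinucleotides per kb against 8.08, and 30.9% against 30.3% of bases in repeats. Among windows with any protein-coding gene, 427 of 25720 were selected (1.66%), and gene groups are read against this share. Vomeronasal receptor genes, which encode pheromone receptors in clusters, had 9 of 210 windows selected (4.29%), and olfactory receptor genes had 13 of 462 (2.81%). Genes longer than 500 kb, many of them neuronal adhesion and channel genes, had 105 of 3486 windows selected (3.01%), in 39 of 216 genes. The highest counts among them, chosen after the values were seen, were 10 of 12 windows in Enox1, 10 of 16 in Rbms3, which encodes an RNA-binding protein, and 7 of 13 in Csmd2. Solute carriers had 18 of 711 (2.53%) and cadherins 3 of 116 (2.59%, 1 window each in Cdh4, Cdh12 and Cdh13). Zinc finger genes, with 6 of 456 windows (1.32%), and protocadherins, with 1 of 63 (1.59%, in Pcdh20), were near or below the share of all genes. None of the 26 windows of core pluripotency genes and none of the 24 windows of defensins was selected. The timing of these groups differs as well, with a median of 1.28 for the pluripotency, 1.16 for the zinc finger, −0.70 for the vomeronasal and −0.80 for the long genes, and whether the shares differ at equal timing was not tested.

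The 8 longest runs showed how far single clones lay apart, and a value of a clone in a run is its mean log2(E/L) over the windows of the run. The longest run, the Dpp4 run at chr2:62050001-62800000 (15 windows, mean IQR 0.68), contains Slc4a10, a bicarbonate transporter, Dpp4, a peptidase that cleaves incretins, Gcg, the glucagon precursor, Fap, a related peptidase, Ifih1, a sensor of double-stranded RNA, and Gca, a calcium-binding protein. On unmodified CAST it ranged from −0.85 (CL20k clone 49) over a median of −0.05 to 0.65 (COSN12 clone C6), and 21 of 43 clones were above 0. Within the run the median rose from −0.30 in the first window to 0.51 at the Dpp4 promoter (window chr2:62400001-62450000, in which clones ranged from −0.42 to 1.10) and fell to −0.79 in the last. Clones of 1 line lay close together here in several cases. The 4 A.COSN123 clones were between −0.68 and −0.57, the A.COSN12 clones at 0.47 and 0.41, the AOSN.COSN12 clones at 0.46 and 0.42, and the BOSN1.COSN123 clones at 0.38 and 0.38. In others they did not, as in Z.AOSN.COSN123 with 0.16 and −0.39 and COSN1 with 0.14 and −0.32.

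The second run, chr1:186700001-187350000 (13 windows), spans Rrp15, a ribosome biogenesis factor, D1Pas1, a helicase of the germline, Spata17 and Gpatch2, and touches Tgfb2, a growth factor. In this Gpatch2 run clones ranged from −0.83 (BTSS.CTSS clone G3) over −0.25 to 0.23 (A.COSN12 clone A3), with 13 of 43 above 0. The Enox1 run, chr14:77250001-77800000 (11 windows), covers most of a single long gene for a cell surface NADH oxidase. It was early in most clones and late in some. The median was 0.57, the highest clone was A.COSN12 clone A3 at 1.00 and the lowest CL20k clone 49 at −0.39, and 33 of 41 clones were above 0. The 8 clones below 0 were both CL20k clones, both BTSS.CTSS clones, CR14.6k clone 16, COSN1.2.8k clone 4, COSN1 clone 2-33 and BTSS clone A10, none of them of the COSN123 family.

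The Edn1 run with Hivep1, a zinc finger transcription factor, and Edn1, the vasoconstrictor endothelin, at chr13:42000001-42500000 (10 windows) was late in all 43 clones, between −1.28 (CL20k clone 85) and −0.07 (CR13.4k clone 2-49) with a median of −0.58. The Arsb run, chr13:93650001-94150000 (10 windows), with Bhmt2 and Dmgdh, enzymes of betaine and dimethylglycine metabolism, Arsb, a lysosomal sulfatase, and Lhfpl2, was early in 36 of 43 clones. Its values ran from −0.57 (COSN12 clone C6) over 0.52 to 1.00 (CR13.4k clone 2-49). COSN12 clone C6 was thus the latest clone here and the earliest in the Dpp4 run.

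The remaining 3 named runs were late in most clones. The Bmper run, chr9:23400001-23850000 (9 windows), ranged from −1.32 (A.COSN123 clone B7) over −0.62 to 0.21 (AOSN.COSN12 clone F3). Bmper, the gene for a secreted regulator of BMP signalling, reaches into this run with its 3′ part and ends at 23485200. The rest of the run overlaps no protein-coding gene. The Nell2 run, chr15:94850001-95300000 (9 windows) over parts of Tmem117 and of Nell2, which encodes a secreted neural protein, ranged from −1.37 (A.BOSN12.BTSS.COSN123 clone C4) over −0.73 to 0.10 (CL20k clone 49). The Slc9a9 run, chr9:94450001-94850000 (8 windows), with 1190002N15Rik and the start of Slc9a9, an endosomal sodium-proton exchanger, ranged from −0.96 (CL20k clone 49) over −0.24 to 0.42 (CR13.4k clone 2-49), with 7 of 43 clones above 0. Its widest window, with an IQR of 0.66, held the Slc9a9 promoter. The other 32 runs of 5 or more windows were 250 to 400 kb long on 14 chromosomes, and 23 of them had a median timing below 0 (highest 0.49, median −0.27).

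**Figure D2:**
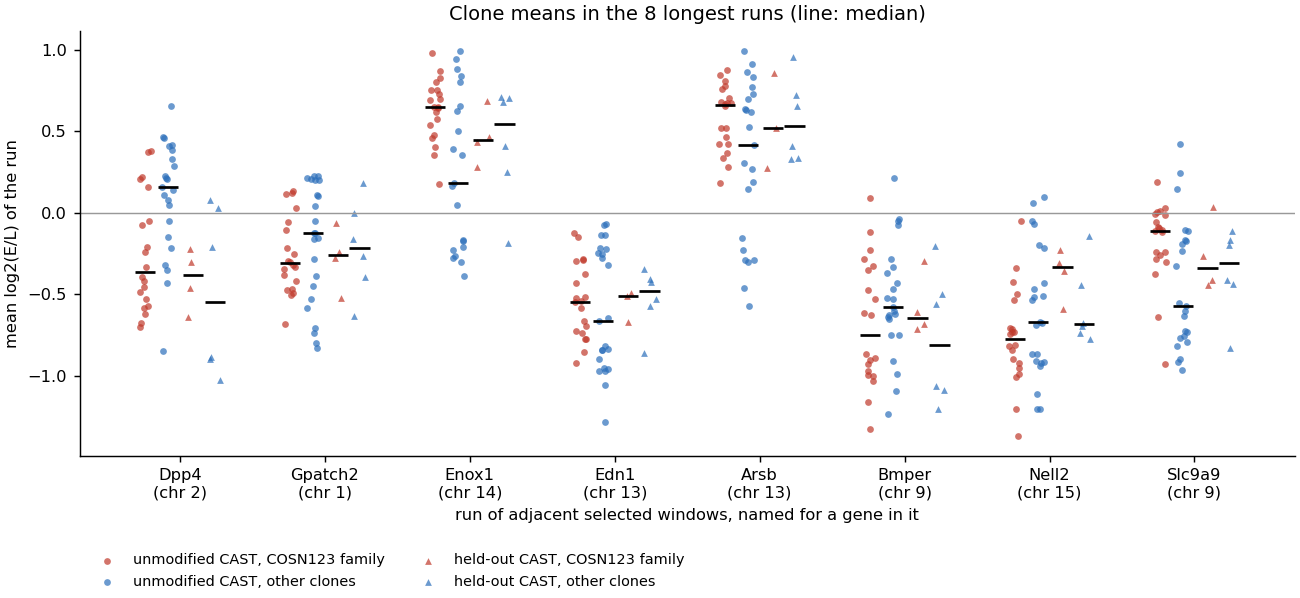
Mean log2(E/L) over each of the 8 longest runs (x axis, named for a gene in the run). Each point is a clone, red for the COSN123 family and blue for other clones, with circles for unmodified CAST and triangles for held-out CAST, and black lines mark medians. In the Dpp4 run unmodified CAST clones lie from −0.85 to 0.65, and the 8 clones below 0 in the Enox1 run are outside the family.

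The runs did not order the clones in 1 way. CL20k clone 49 was the latest clone in the Dpp4, Enox1 and Slc9a9 runs but the earliest in the Nell2 run. Over 41 to 43 clones, the correlation of clone means between runs lay between −0.63 (Enox1 and Nell2 runs) and 0.78 (Gpatch2 and Edn1 runs), with a median of 0.25 over the 28 pairs, and 8 pairs were over 0.5 and 8 below 0. These values share libraries and normalization and are given as a description. Over all selected windows, CR13.4k clone 2-49 was in the earliest 25% of clones in 64.4% of its windows and AOSN.COSN12 clone F3 in 60.8%, whereas AOSN.B.COSN123 clone 1A.4 was in the latest 25% in 54.8%, A.COSN123 clone B7 in 51.8% and CL20k clone 49 in 50.1%. The mean distance from the median of the clones was largest in CL20k clone 49 (0.41, and 0.19 over the ranked windows) and smallest in COSN123 clone A10 (0.13), the mean of 4 cultures. Next nearest to the median were AOSN.COSN123 clone B6 at 0.16 and A.COSN123 clones D8 and H10 at 0.18 each, all of the COSN123 family.

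The musculus homologs of the same clones and the held-out CAST homologs varied in these windows as well. Among the windows with values, the IQR over the 10 held-out CAST clones was in the top 10% of windows in 327 of 854 selected windows (38.3%), and the IQR over the musculus homologs was in the top 10% in 522 of 849 (61.5%). The held-out clones come from libraries that the rule did not use, while most musculus profiles come from the same libraries as the CAST profiles that it did use. Yet the held-out clones are related to ranked ones. Among them 4 are of the COSN123 family, and CTSS clone C4 and BTSS.CTSS clone C11 belong to ranked lines. The correlation between the CAST and the musculus homolog over the 43 clones had a median of 0.79 in 792 selected windows with enough values (quartiles 0.65 and 0.87) and of 0.58 in 40409 ranked windows. Both homologs of a clone share the cells, the sorted fractions and the sequencing of a library, so this is a description of the libraries and no measure of shared control.

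The homologs also differed in level. The medians over clones of musculus and CAST were more than 0.5 apart in 130 of 792 selected windows (16.4%), against 6.03% of 40409, with CAST earlier in 96 and musculus earlier in 34. The Dpp4 run was one of these. On musculus it ranged from −1.59 over a median of −0.93 to −0.34 in 52 clones, so that no musculus homolog was above 0, whereas 21 of 43 unmodified and 2 of 10 held-out CAST homologs were. At the Dpp4 promoter the median was −0.71 on musculus, 0.51 on unmodified CAST and 0.01 on held-out CAST. Over the whole run the held-out CAST median was −0.38. The Bmper run was likewise later on musculus (median −1.14, from −1.57 to −0.33) than on unmodified CAST (median −0.62), with overlapping ranges. In the Enox1 run the homologs had nearly the same median, 0.56 on musculus (47 of 53 clones above 0), 0.57 on unmodified CAST and 0.45 on held-out CAST. The Slc9a9 run had medians of −0.41 on musculus, −0.24 on unmodified CAST and −0.34 on held-out CAST, and the ranges of held-out and unmodified CAST overlapped in each of the 8 runs.

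Whether repeat cultures of a clone agree in these windows depended on the clone. Repeat cultures of 1 clone, with the replicate number in the label, were at hand for 6 clones on unmodified CAST (14 libraries), 5 on held-out CAST (10 libraries) and 11 on musculus (24 libraries, which hold the same cells as the first 2 sets). Separate cultures are stated only for COSN123 clone A10. For the others the labels give a replicate number alone, so that p-values below measure the spread between these libraries, which may be technical. The word culture is used in this text for each library with its own replicate number. Outside A10 it does not mean that separate growth is known. On CAST, cultures were more than 0.5 apart in 1.92% of the selected windows in A.B.COSN123 clone 2E.1, in 3.53% in AOSN.B.COSN123 clone 1A.4 and in 7.76% in A.BOSN12.BTSS.COSN123 clone C4. They were more than 0.5 apart in 24.7% in AOSN.B.COSN123 clone 5A.2, in 43.6% in CTSS clone C12 and in 49.3% over the 4 cultures of COSN123 clone A10. In the same clones the shares over all ranked windows were 0.717%, 3.23%, 5.12%, 12.2%, 15.6% and 22.0%, in this order. On unmodified CAST the selected windows thus exceeded the ranked ones in each of the 6 clones, by little in AOSN.B.COSN123 clone 1A.4. On held-out CAST the shares were 20.0% in CTSS clone C4 and 0.685% to 1.88% in the other 4 clones. On the musculus homologs of the same libraries the shares were 44.0% in COSN123 clone A10 and 34.3% in CTSS clone C12. The range over 4 cultures raises the share of A10, so its place above clones with 2 cultures is not a like comparison. By pairs of libraries, the mean absolute difference over the selected windows was larger in CTSS clone C12. It was 0.49 there on CAST and 0.42 on musculus, and at most 0.35 and 0.33 in A10.

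**Figure D3:**
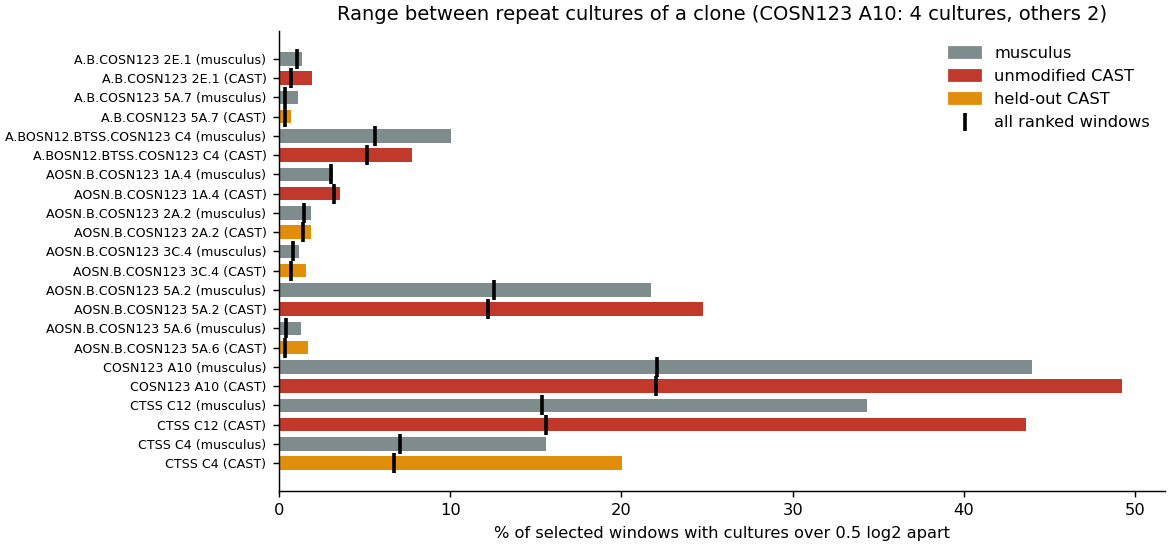
Share of the selected windows in which the repeat cultures of a clone spanned more than 0.5 log2(E/L) (bars, x axis in percent), by clone and homolog, with the same share over all ranked windows as a black tick. The range is over 4 cultures in COSN123 A10, which raises it, and over 2 in all others. Shares run from 0.685% to 49.3%.

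The difference between cultures was set against the difference between clones on the same libraries. On unmodified CAST the SD within clones had a median of 0.25 over the selected windows and the SD between clones 0.27, and over the ranked windows both were 0.17. On musculus the medians were 0.20 within and 0.22 between clones, and on held-out CAST 0.13 within and 0.23 between. Over the ranked windows they were 0.16 and 0.16 on musculus and 0.11 and 0.14 on held-out CAST. The SD between clones is over means of repeat libraries and the SD within clones over single libraries. Equal values therefore do not mean that clones did not differ. In pairs of single libraries, the mean absolute difference over the selected windows on unmodified CAST had a median of 0.33 for 11 pairs of the same clone, 0.22 for 26 pairs of different clones of the same line and 0.39 for 1238 pairs of different lines. Libraries of different clones of a line were therefore no farther apart than repeat libraries of a clone. The 11 same-clone pairs include 6 from COSN123 clone A10 and come from 6 clones only, and which libraries were prepared together is not given, so that line and preparation cannot be told apart. Held-out CAST gave another order, with 0.14 for the same clone (5 pairs), 0.25 for the same line and 0.34 for different lines.

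An effect of clone was tested on the homologs that the rule did not use, with limma's moderated F test across all windows and Benjamini-Hochberg adjustment over all of them at 0.05. On held-out CAST, clones differed beyond the spread of their repeat libraries in 447 of 800 tested selected windows (55.9%), where 28.2% of all 41658 windows tested were called. On musculus they did so in 360 of 848 (42.5%), where 22.2% of all 45137 windows were called. Of the 24 libraries of the latter test, 14 are those whose CAST profiles entered the ranking. The libraries of the held-out test did not enter it, but 4 of its clones are of the COSN123 family and the other is of the ranked CTSS line. Among the 798 selected windows in both tests, 265 were called in both, which is 75.7% of the 350 called on musculus and 59.6% of the 445 called on held-out CAST, and 268 were called in neither. Single windows were called less often than pairs or runs, 32.1% on musculus against 51.3% of pairs, 47.8% of runs of 3 or 4 and 44.7% of runs of 5 or more, and 46.8% against 62.4%, 60.4% and 57.9% on held-out CAST. The difference between these shares was not tested. Selected windows within 300 kb of a gap or end were called in 36.2% on musculus and 50.3% on held-out CAST, where ranked windows at such places were called in 17.3% and 24.4%. Selected windows farther away were called in 44.9% and 57.6%, against 24.7% and 29.4% of the ranked windows there.

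**Figure D4:**
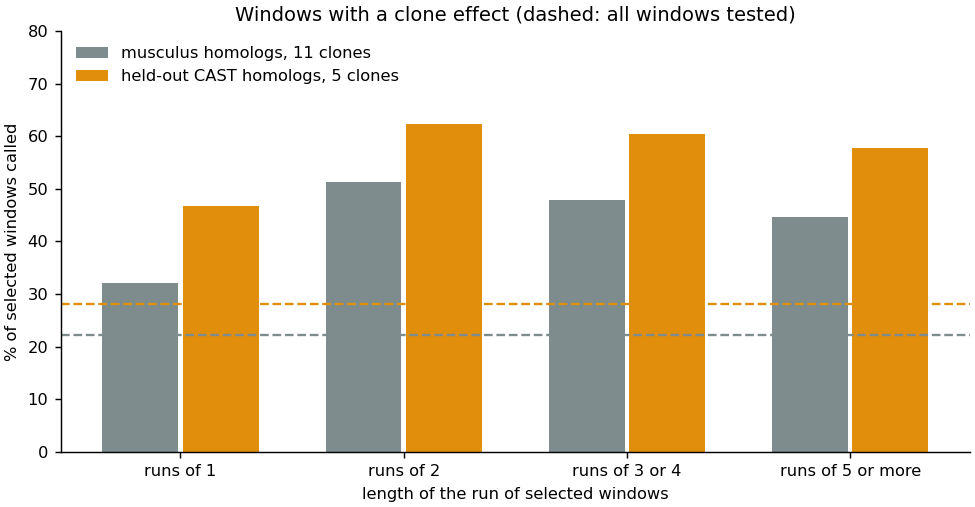
Share of selected windows with a clone effect (limma F test, adjusted p under 0.05) by length of their run, on musculus homologs (grey, 11 clones) and on held-out CAST homologs (orange, 5 clones). Dashed lines mark the share of all windows tested, 22.2% and 28.2%, and all bars lie above the line of their colour.

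In the 8 named runs 21 of 85 windows were called on musculus (24.7%), which is close to the 22.2% of all windows, and 36 of 85 on held-out CAST (42.4%), against 28.2% of all windows. The Nell2 run had the widest span of clone means on musculus among the 8. There, A.BOSN12.BTSS.COSN123 clone C4 had −1.53 and −1.61 in its cultures, A.B.COSN123 clone 2E.1 had −0.20 and −0.22, and the means of the 11 clones spanned 1.36, while cultures of a clone differed by a median of 0.18 and at most 0.46. All 9 windows were called on musculus (limma adjusted p from 0.000181 to 0.00145) and 8 of 9 on held-out CAST. Leaving out any 1 clone kept 9 called on musculus, and on held-out CAST 5 were called without A.B.COSN123 clone 5A.7. On unmodified CAST the same clones stood at the same ends, with −1.17 and −1.56 in the cultures of C4 and −0.05 and −0.05 in those of 2E.1. In the Gpatch2 run cultures lay closer still on musculus, with a median difference of 0.05 and at most 0.22, and the clone means spanned 0.54. In the Dpp4 run on held-out CAST the means of the 5 clones spanned 0.72, and cultures differed by at most 0.24.

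In the Arsb and Slc9a9 runs, by contrast, cultures of the CTSS clones lay far apart. In the Arsb run they fell on both sides of 0. On CAST, CTSS clone C12 had −0.47 in culture 1 and 1.01 in culture 2 over the Arsb run, and on its musculus homolog −0.46 and 0.65. CTSS clone C4, whose CAST homolog was held out, had −0.35 and 1.02 on CAST and −0.36 and 0.74 on musculus. In both clones and on both homologs culture 1 was late and culture 2 early. The Slc9a9 run moved the same way, from −1.17 to −0.10 on CAST and from −1.46 to −0.37 on musculus in clone C12, and from −0.91 to 0.04 and from −0.89 to −0.16 in clone C4. In the Edn1 run, clone C12 moved from −1.17 to −0.46 on CAST and from −1.13 to −0.59 on musculus. None of the 10 windows of the Arsb and 8 of the Slc9a9 run was called on musculus (lowest limma adjusted p 0.24 and 0.0513) or on held-out CAST (0.242 and 0.0604). Without both CTSS clones 3 of 10 and 6 of 8 were called on musculus, and without CTSS clone C4 10 of 10 and 8 of 8 on held-out CAST. Without either CTSS clone alone, 0 of 10 and 5 of 8 were called on musculus, and without AOSN.B.COSN123 clone 5A.2 1 of 8 was called in the Slc9a9 run.

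The CTSS cultures differed in parallel in many more windows. On musculus, culture 2 minus culture 1 was beyond 0.5 in both clones in 89 of 780 selected windows (11.4%) and in 3.34% of 38872 ranked windows. The direction was the same in 88 of the 89, later in culture 1 in 65 and earlier in 23, and the differences of both clones correlated at 0.62 across the 780 windows and at 0.48 across all. In CTSS clone C12 the CAST and the musculus homolog differed between cultures beyond 0.5 in 188 of 797 windows (23.6%), in the same direction in 183. The windows share smoothing and the homologs share libraries. The labels say nothing about when these cultures were grown or processed, so that culture, preparation and library cannot be told apart.

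COSN123 clone A10, with 4 separate cultures, showed a split of another kind. In the Dpp4 run its CAST homolog was at 0.38 and −0.06 in cultures 1 and 2 and at −0.64 and −0.62 in cultures 3 and 4, and its musculus homolog at −0.56, −0.83, −1.28 and −1.25. In the Enox1 run cultures 1 and 2 were at 0.08 and 0.03 on CAST and cultures 3 and 4 at 0.70 and 0.61, with −0.06, 0.08, 0.68 and 0.67 on musculus. Cultures 3 and 4 were thus later than the others in the first run and earlier in the second, on both homologs. Their mean absolute difference over the selected windows on CAST was 0.18, while the other 5 pairs of A10 cultures lay between 0.31 and 0.35. The number of called windows in these runs depended on single clones. On musculus 3 of 15 windows of the Dpp4 run were called, 8 without A10, 5 without AOSN.B.COSN123 clone 5A.2, and 1 without A.BOSN12.BTSS.COSN123 clone C4, AOSN.B.COSN123 clone 1A.4 or AOSN.B.COSN123 clone 3C.4. On held-out CAST 12 of 15 were called, and at the lowest 8, without AOSN.B.COSN123 clone 3C.4. In the Enox1 run 0 of 11 were called on musculus and 3 without A10. On held-out CAST 5 of 11 were called there, 11 without CTSS clone C4, 2 without AOSN.B.COSN123 clone 2A.2 or 5A.6, and 0 without A.B.COSN123 clone 5A.7 or AOSN.B.COSN123 clone 3C.4, so that the call of this run changes with the clones used.

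Of the remaining runs, Gpatch2 had 7 of 13 windows called on musculus, and 3 without A.BOSN12.BTSS.COSN123 clone C4. On held-out CAST it had 6 of 13, and 12 without CTSS clone C4. The Bmper run had 2 of 9 windows called on musculus, and up to 4 without AOSN.B.COSN123 clone 5A.2 or CTSS clone C4. On held-out CAST it had 5 of 9, 9 without CTSS clone C4, 2 without AOSN.B.COSN123 clone 2A.2 and 0 without A.B.COSN123 clone 5A.7. The Edn1 run had none of 10 called on either homolog, whichever clone was left out.

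**Figure D5:**
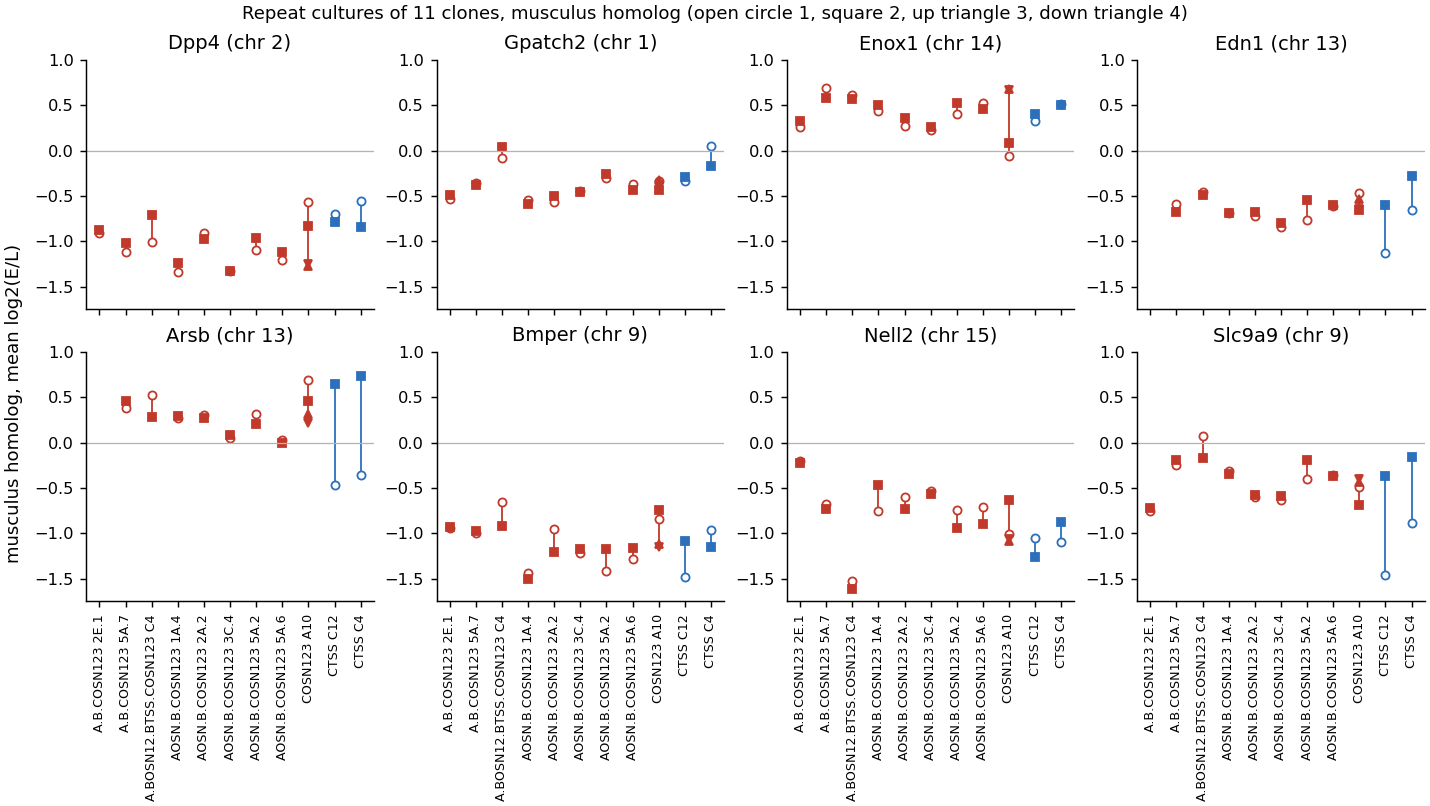
Mean log2(E/L) of the musculus homolog over each of the 8 longest runs in repeat cultures of 11 clones, red for the COSN123 family and blue for CTSS clones. A vertical line joins the cultures of a clone, and a clone without a symbol had no value. The CTSS clones are split by culture in the Arsb and Slc9a9 runs, COSN123 A10 in the Dpp4 and Enox1 runs, while in the Nell2 run the clone means span 1.36 and cultures differ by a median of 0.18.

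Clones of a line were compared with clones of other lines as a description. Over 16 lines with at least 2 unmodified CAST clones (35 clones), the SD between lines was 0.29 and within lines 0.21 in the median selected window, and the median of their ratio was 1.43, against 1.02 over the ranked windows. The SD between lines is over means of clones and the SD within lines over single clones, so they are not on the same scale. The windows were chosen for a wide spread over these same clones, which can raise this ratio. On musculus the ratio was 1.27 against 1.01 (19 lines, 46 clones), mostly from the same libraries.

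The COSN123 family, whose clones share an ancestor, was compared with the other clones on the homologs that the rule did not use. Of the 53 clones on musculus, however, 43 had their CAST profiles in the ranking. The musculus share is therefore not independent of the choice of windows. Medians on unmodified CAST, whose values the rule used, are a description. They were −0.36 in the family and 0.16 in the others over the Dpp4 run, and 0.65 and 0.18 over the Enox1 run. Over the Arsb run they were 0.66 and 0.42, and over the Slc9a9 run −0.11 and −0.57, with overlapping ranges in each. The other runs had −0.31 and −0.12 (Gpatch2), −0.54 and −0.66 (Edn1), −0.75 and −0.58 (Bmper), and −0.78 and −0.67 (Nell2). On held-out CAST the order was reversed in the Dpp4 (−0.38 and −0.55), Enox1 (0.45 and 0.55), Arsb (0.52 and 0.53) and Slc9a9 runs (−0.34 and −0.30). It was kept in the Gpatch2 run (−0.26 and −0.21). On musculus, with 24 clones of the family and 29 others, limma on clone means called 20 of 842 selected windows (2.38%), where 1.26% of 44287 windows were called. The fit took clones as independent, although the family descends from 1 clone and many clones share a line, so its p-values can be too small. The paper made COSN12 and COSN123 by further deletions in the COSN1 line, and BTSS.CTSS in the CTSS background. The clones outside the family are therefore not all unrelated to it or to each other. Of the 20, 18 were later in the family and 2 earlier, and over all called windows 486 were later and 71 earlier. None lay in a named run, where the lowest adjusted p was 0.0666 (Dpp4 run). The clearest was the single window chr13:104750001-104800000 with Cwc27, a splicing factor, and Srek1ip1, with means of −0.11 in the family and 0.31 in the others (difference −0.42 ± 0.05 SE, limma adjusted p = 4.94e-06). On held-out CAST the family differed from the others by −0.04 in this window. This window and the next were picked from the called ones after their values were seen.

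The 3 called windows of Tbc1d4, a regulator of glucose transporter traffic, at chr14:101450001-101600000 had the opposite proportion. They differed by −0.17, −0.20 and −0.19 on musculus (limma adjusted p 0.0137, 0.00772 and 0.0221) and by −0.75, −0.82 and −0.79 on held-out CAST. On held-out CAST, with 4 clones against 6, limma called 0 of 833 selected windows and 0% of 43915 windows in all, and the lowest adjusted p of a selected window was 0.0806. At an unadjusted p under 0.05 were 121 selected windows (14.5%) and 12.5% of all windows. The held-out family clones are A.B.COSN123 and AOSN.B.COSN123 clones alone, so that family and these lines cannot be told apart there.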

How the data were processed

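Early and late S-phase fractions of 53 clones were profiled by E/L Repli-seq. The authors trimmed the reads, aligned them with bowtie2 to mm10 with musculus and CAST SNPs masked, sorted them by homolog with SNPsplit and, after Samtools had taken out duplicates, used bedtools for 50 kb windows (Trim Galore, cutadapt and bedtools are named in the submitters' processing notes). The deposited values are log2 ratios of early over late reads, scaled, quantile-normalized and smoothed by loess over 300 kb by the authors. Such normalization gives every profile a like distribution, and smoothing spreads a difference to neighbouring windows. Neither counts nor read depth were analysed here.

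Columns of repeat libraries were averaged to clones with pandas 2.3.3 (Python 3.11.15). Columns headed as 2 runs of a library that the labels list once were averaged first. Held-out CAST columns were all those tagged other than unmodified, a wider set than the tag DEL named in the plan. The effect of clone was tested on libraries by a moderated F test, and the COSN123 family on clone means by a two-sided test with lmFit and eBayes, both in limma 3.58.1 (R 4.3.3), over all windows but the 80 left out on chromosome 16, with Benjamini-Hochberg adjustment at 0.05. The test was checked on simulated data. Named regions were the 8 longest runs, the widest window and those next to the threshold, with at most 6 overlapping protein-coding genes of GENCODE vM21 each. The windows, regions and gene lists were chosen with earlier results of these data known. Alternatives were other rankings, single libraries or clones left out, a replicate block, a trend in the variance and a thinned set of windows. Of the libraries in the labels, 66 of 71 were analysed.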

Additional observations from a re-analysis of the deposited data

Results flagged for a closer look

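In 47 groups of 4 to 10 values over the 8 longest runs, the farthest value was set against the range of its group, and 4 stood apart. By chance about 1 group in 20 would. On held-out CAST, BTSS.CTSS clone C11 had −0.18 over the Enox1 run, while the other clones of the 10 lay between 0.25 and 0.71. In the 4 cultures of COSN123 clone A10 on unmodified CAST, culture 1 had 1.07 over the Arsb run, where the other cultures lay between 0.52 and 0.59. Culture 2 of the same clone had −0.54 over the Nell2 run, with the other cultures between −0.95 and −0.88. On musculus, A.COSN123 clone C9 had −1.14 over the Bmper run, and the other A.COSN123 clones lay between −1.40 and −1.36.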

How the results depend on the processing

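Of 58 alternative settings, 52 were counted as the same as reported and 6 as moved. Same means within a set tolerance. Shares of 30.8% against 42.5% on musculus and 38.1% against 55.9% on held-out CAST were counted as the same. So were shifts of the median timing by less than 0.32, and the top 5% ranking, which holds all 856 windows by construction. Settings of the family contrast on held-out CAST with 0 selected windows called were counted as the same as the reported 0, which cannot show stability. The choice of windows depended most on the clones ranked. Of the 856 windows, 47.3% were also in the top 2% by SD, 33.4% when only COSN123 family clones were ranked and 44.4% when only other clones were, and the top 1% holds 50% by construction. The median timing stayed between −0.56 and −0.30 under every ranking tried. Leaving out each clone in turn gave a clone effect in 30.8% to 48.2% of the selected windows on musculus (all windows up to 26.9%) and in 38.1% to 70.6% on held-out CAST (all windows up to 40.2%), the highest without CTSS clone C4. The family difference on musculus fell to 1.42% of selected and 0.899% of all windows when COSN1, COSN12, A.COSN12 and AOSN.COSN12 clones were left out of the others, a setting chosen after seeing the data. According to the paper, COSN12 and COSN123 were both made in the COSN1 line. On held-out CAST the family difference ranged from 0% to 0.360%, the latter without ATSS.BTSS.CTSS clone C4. Over the 11 clones on musculus, cultures with the same replicate number did not as a rule deviate together. Correlations between clones ran from −0.32 to 0.45 in 55 pairs, and 9 were over 0.1. The numbers were therefore not used to pair libraries across clones, although the cultures of both CTSS clones did differ in parallel. With the replicate number as a block, the clone effect was called in 46.8% on musculus and 60.8% on held-out CAST. The family difference on musculus was called in 3.07% in a fit that used single libraries, the replicate block and clone as a random block together. The cause of these shifts was not tested. Read depth is unknown, so windows with few reads cannot be set apart from windows in which clones differ.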

Other observations

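Columns headed as 2 runs of a library were present for 3 clones (CR11.8k clone 50 and Z.AOSN.COSN123 clones A9 and B4). Their mean absolute difference between runs was 0.21 to 0.51 over the selected windows and 0.21 to 0.32 over the ranked windows, in 6 pairs of columns.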
